A study of Homo sapiens with 16 samples.

Results

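The MDM2 W329G allele was set against wild-type MDM2 in U2OS cells that had received only the vehicle, dimethyl sulfoxide (DMSO). U2OS is a human osteosarcoma line. The comparison took the DMSO libraries by their titles, which gave 8 of the 16 libraries of the series. They were 4 libraries of cells in which CRISPR/Cas9 had introduced MDM2 W329G (W329G) and 4 of wild-type cells (WT), all kept in DMSO for 24 h. The other 8 libraries came from the same cells after 24 h in 50 µM 5-fluorouracil (5-FU), an antimetabolite that disturbs RNA and DNA synthesis, and are used here only to look at the same genes in separate RNA. Each genotype consisted of 2 lines, numbered cells 1 and cells 2, and each line was sampled in 2 experiments that different vendors sequenced. In experiment 1, cells 1 gave replicate 1 and cells 2 gave replicate 2. In experiment 2, cells 1 gave replicate 3 and cells 2 gave replicate 4. With 2 lines for each genotype, a difference that follows the allele and one that the edited lines share for another reason cannot be told apart.

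MDM2 is the ubiquitin ligase that marks p53 for degradation, and the MDM2 gene is itself switched on by p53, which closes a feedback loop. The central part of the MDM2 protein also binds ribosomal proteins such as RPL5 and RPL11, which restrain the ligase when ribosome assembly is disturbed. In unstressed cells p53 is kept low, and its target genes, among them the cell cycle inhibitor CDKN1A, are transcribed at a basal level. The question asked under DMSO is whether the allele alters that basal state or other transcripts in the absence of the drug.

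Among 15379 genes tested, 6 differed between W329G and WT cells by edgeR's quasi-likelihood test at an adjusted p under 0.05, which is 0.039% of them. TGM2, GLMP, ZNF154, PRAG1 and CT45A1 were lower (5 genes, 0.0325%) and PAPPA2 was higher (1 gene, 0.0065%) in W329G cells. GLMP and ZNF154 were close to the detection limit in W329G cells, and PAPPA2 was the 1 gene that rose. The 250 bases before the annotated start are printed for 3 of these genes, from RefSeq on GRCh38.p14, 5′ to 3′ on the strand of the gene. Those of TGM2, PRAG1 and CT45A1 are not shown. Each CG dinucleotide, the site at which mammalian promoters are methylated, is in capitals. The GLMP window is chr1:156295680-156295929 on the minus strand, the ZNF154 window chr19:57709205-57709454 on the minus strand and the PAPPA2 window chr1:176462925-176463174 on the plus strand.
GLMP: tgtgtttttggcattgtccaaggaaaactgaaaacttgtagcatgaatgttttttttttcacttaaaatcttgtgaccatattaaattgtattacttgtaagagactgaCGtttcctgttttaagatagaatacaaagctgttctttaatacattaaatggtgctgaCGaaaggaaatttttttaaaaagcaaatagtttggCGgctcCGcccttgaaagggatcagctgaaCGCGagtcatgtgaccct
ZNF154: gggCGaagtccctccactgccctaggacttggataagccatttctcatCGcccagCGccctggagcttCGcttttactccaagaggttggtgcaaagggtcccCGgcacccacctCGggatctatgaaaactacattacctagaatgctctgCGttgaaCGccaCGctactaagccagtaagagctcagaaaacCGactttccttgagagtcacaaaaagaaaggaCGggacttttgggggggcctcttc
PAPPA2: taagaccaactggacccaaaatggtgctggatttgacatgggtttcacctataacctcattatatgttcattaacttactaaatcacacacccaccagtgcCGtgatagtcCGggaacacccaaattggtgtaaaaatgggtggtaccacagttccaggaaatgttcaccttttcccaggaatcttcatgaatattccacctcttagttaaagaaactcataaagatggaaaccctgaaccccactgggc
The motif searched was CG, which reads the same on both strands. The GLMP window held 6 of them, the ZNF154 window 11 and the PAPPA2 window 2. Over 35116 promoters of the same length the median was 11, and 93.9% held a CG. At least as many CG as in the GLMP window were found in 61.9% of promoters, as in the ZNF154 window in 50.3% and as in the PAPPA2 window in 85.3%. No methylation was measured, and the counts describe the letters of the windows alone.

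The 8 libraries held from 26298279 to 56877328 counts. Of the markers checked, 6 of 8 mesenchymal genes were at 1 CPM (counts scaled to library size) or more in all 8 libraries, while TWIST1 stayed under 1 CPM, and 5 of 6 blood markers were under 1 CPM in all. The mesenchymal sum ran from 5357 to 10712 CPM in W329G libraries and from 6547 to 10396 CPM in WT libraries. The blood marker sum was 0.92 to 1.34 CPM in W329G libraries and 0.71 to 1.72 CPM in WT libraries. Epithelial markers summed to 7.52 to 70.6 CPM in W329G libraries and 8.99 to 61.4 CPM in WT libraries, and EPCAM was at 1 CPM or more in all 8. Since these are bulk samples, fewer cells of a kind and less RNA per cell cannot be told apart.

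The cell numbers went against each other between the experiments. Over 11420 genes, the difference cells 1 minus cells 2 in W329G correlated between experiments 1 and 2 with r = -0.664 under DMSO and -0.737 under 5-FU, and in WT with -0.22 and -0.402. Within an experiment the same difference correlated between DMSO and 5-FU with r of 0.681 to 0.812. These correlations are across genes of 2 libraries on each side and share depth and base composition. With a correction for GC content, those between experiments were -0.623 and -0.755 in W329G and -0.353 and -0.398 in WT. Those within an experiment were then 0.76 to 0.82. Whether a number names the same line in both experiments was not settled by the labels. The main comparison does not use the cell number, and the sums per line and the fit with the line as a block are given under both readings, whereas leaving out a line was run with the labelled numbers alone. The log2 fold changes also followed GC content, with a Spearman correlation of -0.451 across genes, and a correction for GC left 3 of the 6 calls, TGM2, GLMP and ZNF154. Mitochondrially encoded genes held 7.14% of the counts in W329G replicate 1, the lowest share, and 24.63% in WT replicate 1, the highest.

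MDM2 was not called under DMSO. It had 59.5, 41.7, 71.6 and 114 CPM in W329G replicates 1 to 4, against 41.4, 46.6, 74.2 and 77.3 CPM in WT replicates 1 to 4. The groups overlapped, and the log2 fold change was 0.25 ± 0.18 (SE) with an adjusted p of 0.607 in edgeR, or 0.13 after the GC correction. The counts are per gene, so they do not show the mutant base itself. CPM, a gene that overlaps MDM2 on the opposite strand, had fewer counts (1464 against 5880 for MDM2 in the DMSO libraries of experiment 1).

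MDM4, the relative of MDM2 that blocks p53 without degrading it, had 15.4, 28.2, 72.4 and 64.7 CPM in W329G libraries, against 38.1, 22.4, 35.5 and 52.2 CPM in WT libraries. Its difference turned round between the experiments, at -0.49 in experiment 1 and 0.67 in experiment 2 on the log2 scale. Over both it was 0.09 ± 0.30 (edgeR adjusted p = 0.925).

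CDKN1A, which encodes the cell cycle inhibitor p21, had 119, 123, 70.7 and 57.8 CPM in W329G libraries, against 116, 166, 103 and 78.6 CPM in WT libraries. The groups overlapped in experiment 1, and the log2 fold change was -0.36 ± 0.16 (edgeR adjusted p = 0.416), or -0.21 after the GC correction. Under 5-FU, MDM2 had 57.7 to 102 CPM in W329G cells and 193 to 292 CPM in WT cells, with a log2 fold change of -1.61 ± 0.16 (edgeR adjusted p = 0.00095). CDKN1A had 91.2 to 239 CPM in W329G cells and 383 to 1072 CPM in WT cells under 5-FU, with a log2 fold change of -2.10 ± 0.15 (edgeR adjusted p = 0.000249).

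**Figure D1:**
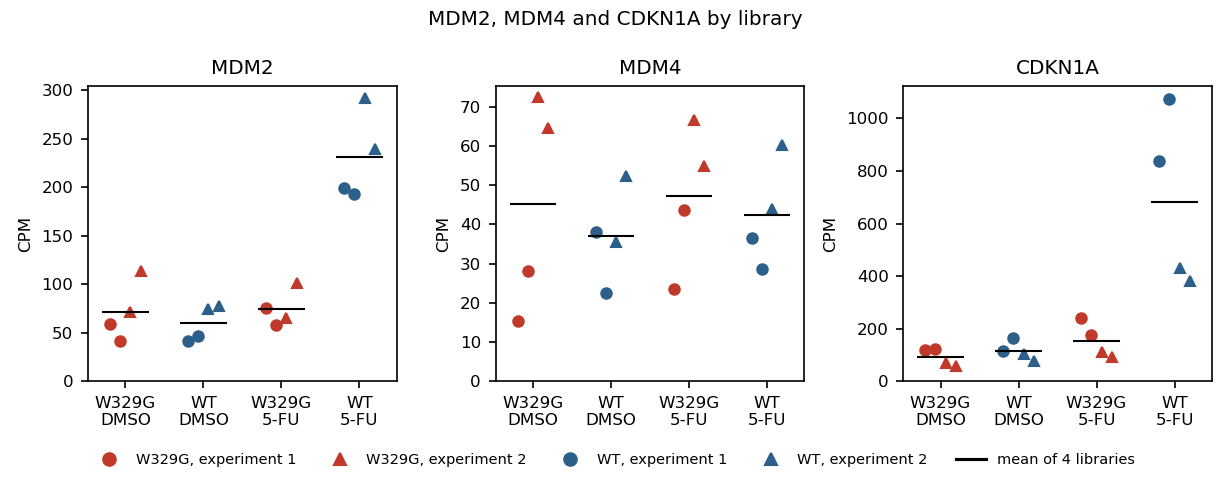
CPM (y axis, linear, from 0) of MDM2, MDM4 and CDKN1A in each library, by genotype and treatment (x axis), with circles for experiment 1, triangles for experiment 2 and a line at the mean of 4 libraries. Under DMSO the W329G values of MDM2, from 41.7 to 114 CPM, overlap the WT values of 41.4 to 77.3 CPM, whereas under 5-FU all 4 W329G values of MDM2 and CDKN1A lie below all 4 WT values.

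The wider p53 program showed the same lack of calls under DMSO. Of 145 genes listed as p53 targets, 138 were tested and none was called by edgeR, while 5 were higher and 11 lower in W329G cells at an unadjusted p under 0.05. That is 11.6% of the list, beside 12% of all genes tested. DESeq2 called 3 of them lower, beside 2.36% of all genes (0.773% higher and 1.59% lower): AEN, an apoptosis-enhancing nuclease, FUCA1, a lysosomal fucosidase, and PGF, a placental growth factor. Their log2 fold changes in edgeR were -0.47 ± 0.14 for AEN, -0.76 ± 0.19 for FUCA1 and -0.65 ± 0.19 for PGF. The median over the 138 targets was -0.03, and the medians of single W329G libraries lay between -0.08 and 0.02. In the 5-FU libraries the list had a median of -0.81, with 85 targets lower and none higher at an edgeR adjusted p under 0.05, beside 12.2% of all 15238 genes tested there, 6.06% higher and 6.16% lower.

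Within the p53 list the roles had medians between -0.19 and 0.10. Feedback genes, which include PPM1D and CCNG1 besides MDM2 and MDM4, had none of 10 at an unadjusted p under 0.05 and a median of 0.09. Among 18 arrest and repair genes 4 were lower at that p and none higher, 22.2% beside 12% of all genes, with a median of -0.19. The 4 were CDKN1A, DDB2, a damage recognition factor at -0.41 ± 0.14, PCNA, the replication clamp at -0.42 ± 0.15, and PRDM1, a transcriptional repressor at -0.69 ± 0.25. Apoptosis genes had a median of 0.10 over 19 tested and metabolic targets -0.02 over 24 tested. Genes of the MDM2 and p53 network, a list of regulators that shares 5 members with the target list (MDM2, MDM4, COP1, RCHY1 and RPS27L), had a median of 0.09 over 38 tested, and RPL5 and RPL11 themselves were at 0.05 ± 0.20 and 0.13 ± 0.18.

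The 6 called genes had the same sign in both experiments, as did 68.1% of all genes, and for each of them the 2 W329G libraries lay beyond the 2 WT libraries within each experiment. Without a requirement on the test, 6.35% of all genes lay lower in this way and 6.0% higher. None of the 6 belongs to the p53 target list.

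TGM2 encodes tissue transglutaminase, an enzyme that cross-links proteins in and around the cell. It lies at chr20:38127387-38166578 on the minus strand. It had 19.996, 23.6, 15.4 and 12.2 CPM in W329G libraries, against 171, 128, 96.1 and 99.7 CPM in WT libraries. Every W329G library was below every WT library, with means of 17.8 ± 5.04 CPM in W329G and 124 ± 34.7 CPM in WT cells (SD, n = 4 each). The log2 fold change was -2.80 ± 0.15 (edgeR adjusted p = 8.75e-05). RPRD1B overlaps TGM2 on the opposite strand and was at -0.11 ± 0.12.

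GLMP encodes a glycosylated membrane protein of the lysosome and lies at chr1:156290089-156295689 on the minus strand. It had 0.611, 0.624, 0.237 and 0.385 CPM in W329G libraries, against 12.7, 8.36, 13.5 and 8.37 CPM in WT libraries. As raw counts these were 22, 18, 9 and 12 in W329G libraries and 308, 274, 746 and 299 in WT libraries. The log2 fold change was -4.58 ± 0.35 (edgeR adjusted p = 0.00126), the largest in size of the 6. TMEM79 overlaps GLMP on the opposite strand with a like number of counts (692 against 622 in the DMSO libraries of experiment 1) and was at 0.07 ± 0.24. Whether the counting used strand is not given in the sources used here.

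ZNF154 encodes a KRAB zinc finger protein of the cluster on chromosome 19, known for promoter methylation in many tumours, and lies at chr19:57697367-57709194 on the minus strand. It had 0.0278, 0.208, 0.369 and 0.450 CPM in W329G libraries, against 2.88, 2.29, 7.70 and 7.64 CPM in WT libraries. As raw counts these were 1, 6, 14 and 14 in W329G libraries and 70, 75, 424 and 273 in WT libraries, so the size of the difference in experiment 1 rests on few counts. The log2 fold change was -4.33 ± 0.42 (edgeR adjusted p = 0.00737), and the call was lost without WT replicate 4 (edgeR adjusted p = 0.0533). ZNF551, which overlaps it on the opposite strand with more counts, was at -0.10 ± 0.23.

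PRAG1 encodes a pseudokinase that acts in signalling to the cytoskeleton, and lies on chromosome 8. It had 22.7, 20.1, 13.6 and 16.5 CPM in W329G libraries, against 62.2, 45.1, 42.0 and 43.7 CPM in WT libraries. The groups did not overlap, and the log2 fold change was -1.42 ± 0.15 (edgeR adjusted p = 0.0115), the smallest in size of the 6. After the GC correction it was -1.18 and no longer called (edgeR adjusted p = 0.119). The call was also lost without W329G replicate 2 (edgeR adjusted p = 0.0663), WT replicate 1 (0.0656) or WT replicate 4 (0.054).

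CT45A1 is a cancer-testis antigen gene of a multicopy family on the X chromosome and lies at chrX:135713453-135723539 on the plus strand. It had 0.944, 3.01, 6.09 and 1.89 CPM in W329G libraries, against 21.9, 24.6, 60.2 and 37.8 CPM in WT libraries. The log2 fold change was -3.59 ± 0.42 (edgeR adjusted p = 0.0224). The call was lost after the GC correction (edgeR adjusted p = 0.0561) and on leaving out any 1 WT library, with an edgeR adjusted p of 0.0659, 0.0547, 0.111 and 0.054 without WT replicates 1 to 4. Reads of the family can be split among near-identical copies, so the copy is uncertain. Of the other copies tested, CT45A5 was at -1.77 ± 0.36, CT45A3 at -0.74 ± 0.61 and CT45A10 at 0.52 ± 0.34, and edgeR called none of them, while DESeq2 called CT45A5.

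PAPPA2 encodes a secreted metalloprotease that cleaves insulin-like growth factor binding proteins, and lies at chr1:176463171-176845605 on the plus strand. It had 33.1, 36.8, 23.3 and 22.2 CPM in W329G libraries, against 2.22, 9.03, 2.16 and 1.65 CPM in WT libraries. WT replicate 2 stood above the other WT libraries, but still below every W329G library. The log2 fold change was 3.08 ± 0.39 (edgeR adjusted p = 0.0402). The call was lost after the GC correction (edgeR adjusted p = 0.0561) and on leaving out any 1 library except WT replicate 2: the edgeR adjusted p was 0.0825, 0.0933, 0.108 and 0.0907 without W329G replicates 1 to 4, and 0.0652, 0.168 and 0.193 without WT replicates 1, 3 and 4. Without WT replicate 2 it was 0.000374. IGFBP5, which encodes a substrate of this protease, had 550, 494, 184 and 255 CPM in W329G libraries, against 1636, 551, 290 and 693 CPM in WT libraries. Its log2 fold change of -1.12 ± 0.35 was not called by edgeR (adjusted p = 0.29), whereas DESeq2 called it lower (adjusted p = 0.0424).

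**Figure D2:**
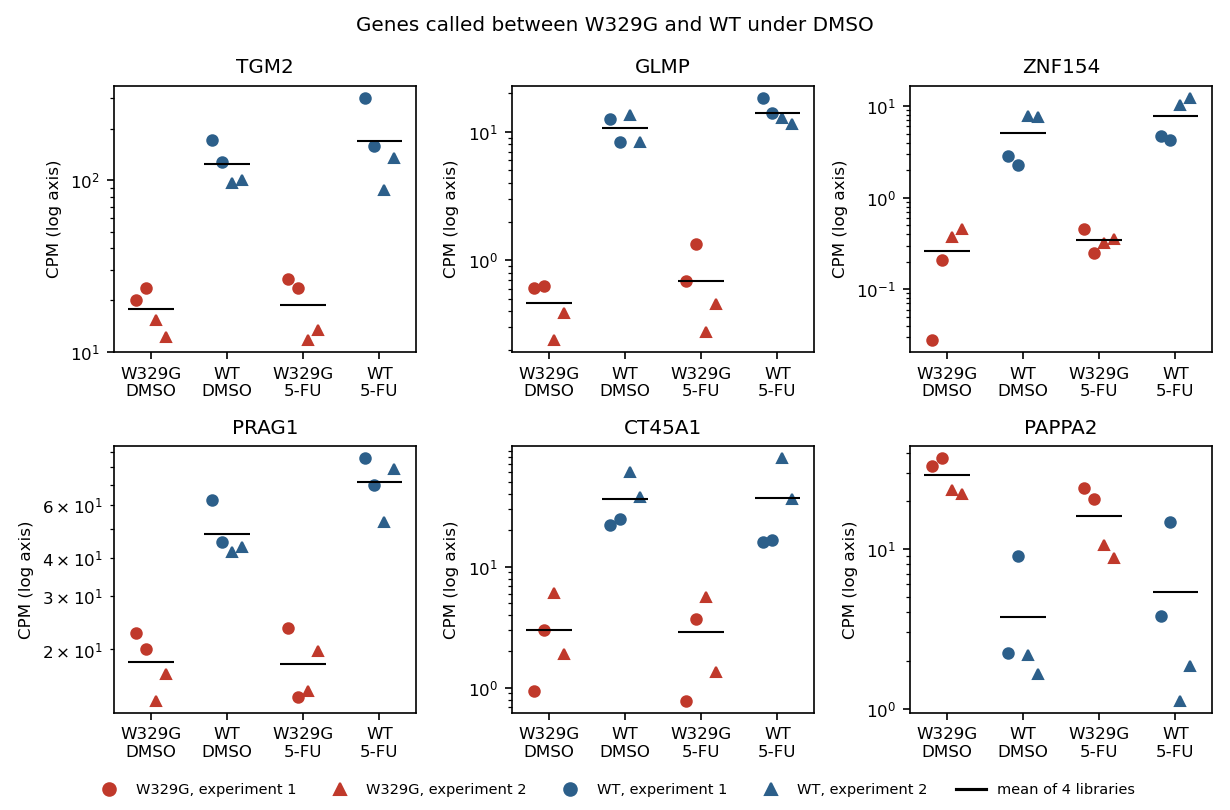
CPM (y axis, log scale) of the 6 called genes in each library, by genotype and treatment (x axis), with circles for experiment 1, triangles for experiment 2 and a line at the mean of 4 libraries. Under DMSO each W329G library of TGM2, from 12.2 to 23.6 CPM, lies below each WT library, from 96.1 to 171 CPM, and the 5-FU libraries of the same cells keep the same order of genotypes.

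The 5-FU libraries come from the same lines but were not used for the calls. In them all 6 genes were called in the same direction as under DMSO. The share over all 15238 genes tested in both treatments was 12.2%, with 6.06% higher and 6.16% lower. TGM2 was at -3.18 ± 0.23, GLMP at -4.49 ± 0.33, ZNF154 at -4.36 ± 0.36, PRAG1 at -1.99 ± 0.21, CT45A1 at -3.51 ± 0.59 and PAPPA2 at 1.95 ± 0.45 on the log2 scale. Their edgeR adjusted p-values ran from 0.000243 for TGM2 to 0.0243 for PAPPA2. In PAPPA2 the genotypes overlapped under 5-FU, with 8.81 to 24.1 CPM in W329G cells and 1.12 to 14.7 CPM in WT cells. The WT library at 14.7 CPM is replicate 2, the WT library that also had the highest level under DMSO. These libraries repeat the RNA and not the lines.

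Another 8 genes had an adjusted p between 0.05 and 0.1 in edgeR and were chosen for description after their values were seen. COL3A1, a fibrillar collagen, had 388, 309, 307 and 246 CPM in W329G libraries, against 68.2, 150, 99.1 and 89.8 CPM in WT libraries, a log2 fold change of 1.61 ± 0.23. HOXD11, a positional identity gene, had 8.94, 6.27, 7.11 and 5.75 CPM in W329G libraries, against 2.38, 2.53, 1.87 and 2.46 CPM in WT libraries, a log2 fold change of 1.60 ± 0.24. In both genes the groups did not overlap. CLEC2B, a C-type lectin, was at 1.84 ± 0.28, GABARAPL1, an autophagy factor of the ATG8 family, at 1.25 ± 0.20 and LGR4, an R-spondin receptor, at 0.88 ± 0.14. On the lower side DNAJC18, a J-domain protein, was at -3.04 ± 0.46, NTRK3, the receptor of neurotrophin-3, at -1.98 ± 0.28 and DMKN, dermokine, at -0.85 ± 0.13. In the 5-FU libraries 7 of the 8 were called in the same direction, beside 12.2% of all genes called in either direction. NTRK3 was at -1.52 ± 0.44 (edgeR adjusted p = 0.0552).

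Below that, many genes passed an unadjusted p or the DESeq2 test without a call by edgeR, and not all of their fold changes were small. At an unadjusted p under 0.05, 801 genes were higher (5.21%) and 1045 lower (6.79%) in W329G cells, 12% of all genes tested. DESeq2, run with the same design, called 342 (2.36%) of the 14484 genes to which it gave an adjusted p, 112 higher (0.773%) and 230 lower (1.59%). Gene lists are therefore described by their counts at the unadjusted p, by their median and by the DESeq2 calls. Each is to be read beside the same measure for all genes, whose median log2 fold change was 0.00. No set test was made, and none of the list members named from here on passed edgeR's adjusted p except where the 6 called genes are repeated.

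Histone genes had the lowest median of the lists described. Most histone messages lack a poly-A tail and are made in S phase, so a poly-A library catches only a small part of them. Of 24 histone genes listed 15 were tested, with a median of -1.04. Of the tested genes, 10 were lower and none higher at an unadjusted p under 0.05, which is 66.7% beside 12% of all genes. DESeq2 called 5 lower: H2BC4, H2BC5, H2BC12, H2BC21 and H2AC11. H2BC12 had 51.7, 87.2, 24.98 and 8.57 CPM in W329G libraries, against 226, 148, 30.2 and 74.998 CPM in WT libraries. Its log2 fold change was -1.53 ± 0.37. H2BC5 had 13.3, 14.9, 7.11 and 6.23 CPM in W329G libraries, against 26.9, 22.6, 11.2 and 21.2 CPM in WT libraries, a log2 fold change of -1.04 ± 0.22.

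The list median was negative in all 4 W329G libraries, from -0.72 in replicate 3 to -1.30 in replicate 4, while the WT libraries ran from -0.37 to 0.37. H2AC20 was the 1 tested histone gene above 0, at 0.11 ± 0.32. G1/S and replication genes, which mark entry into S phase, had a median of -0.02 over 51 tested. At an unadjusted p under 0.05, 2 were higher and 3 lower, which is 9.8% beside 12% of all genes. RRM2, the small subunit of ribonucleotide reductase, was at 0.62 ± 0.18 and MCM5, of the replicative helicase, at -0.32 ± 0.13. Under 5-FU the histone median was -1.73, with 11 of the genes called lower and none higher. The shares over all genes there were 6.16% lower and 6.06% higher.

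**Figure D3:**
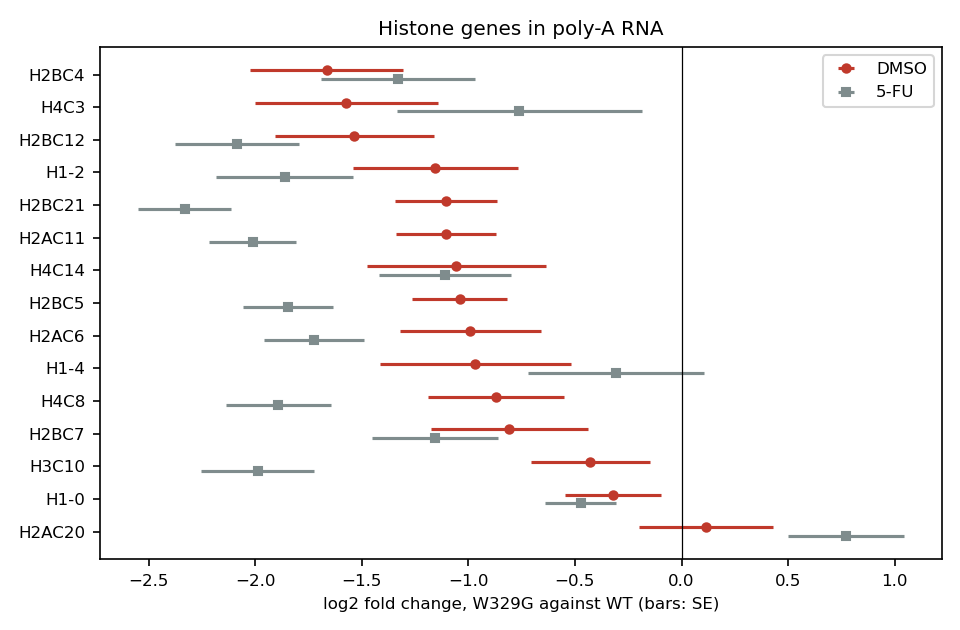
Log2 fold change of W329G against WT cells (x axis, bars are SE) for the 15 histone genes tested (y axis), with red circles for the DMSO libraries and grey squares for the 5-FU libraries. Under DMSO 14 of the 15 lie below 0, around a median of -1.04.

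Matrix genes included TGM2, the called gene with the smallest p, and lay on both sides of 0. Of 44 collagen, laminin and other matrix genes tested, 4 were higher and 10 lower at an unadjusted p under 0.05, which is 31.8% of the list, and the median was -0.09. Besides TGM2, DESeq2 called COL4A1, COL4A2, LAMA3 and VCAN lower and COL3A1 and COL5A2 higher. COL4A1 and COL4A2, the paired chains of basement membrane collagen, share a promoter region on chromosome 13. COL4A1 had 281, 190, 154 and 144 CPM in W329G libraries, against 360, 371, 314 and 282 CPM in WT libraries, a log2 fold change of -0.82 ± 0.16. COL4A2 was at -1.04 ± 0.23, and the groups did not overlap within an experiment in either gene. COL5A2, which lies beside COL3A1 on chromosome 2, had 241, 218, 209 and 195 CPM in W329G libraries, against 107, 139, 151 and 126 CPM in WT libraries, a log2 fold change of 0.72 ± 0.15. MMP9, a matrix protease, was at -2.01 ± 0.48 and PLAU, urokinase, at 0.57 ± 0.15, and DESeq2 called both.

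Amino acid genes under the transcription factor ATF4 were higher more often than lower. Of 35 tested, 13 were higher and none lower at an unadjusted p under 0.05, which is 37.1% of the list, and the median was 0.30. DESeq2 called 5 higher: VLDLR, CHAC1, SLC38A2, ASNS and FGF21. ASNS, asparagine synthetase, had 393, 230, 162 and 223 CPM in W329G libraries, against 137, 226, 104 and 122 CPM in WT libraries, a log2 fold change of 0.78 ± 0.22. W329G replicate 2 was barely above WT replicate 2, the highest WT value. CHAC1, which degrades glutathione, had 15.1, 3.36, 10.2 and 16.4 CPM in W329G libraries, against 2.55, 2.74, 6.93 and 4.03 CPM in WT libraries, a log2 fold change of 1.53 ± 0.42. The list median of single libraries was 0.52, 0.23, 0.27 and 0.26 in W329G replicates 1 to 4, and WT replicate 2 reached 0.28, so the groups overlapped. Serine and folate enzymes had 4 of 18 higher and 1 lower, which is 27.8% beside 12% of all genes. Among them were MTHFD2 at 0.66 ± 0.21 and TKT, transketolase, at -0.60 ± 0.21.

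Antioxidant genes under NRF2 were also higher more often than lower. Of 25 tested, 8 were higher and none lower at an unadjusted p under 0.05, which is 32.0% beside 12% of all genes. The median was 0.33. ME1, malic enzyme, which DESeq2 called, had 51.4, 40.2, 41.7 and 50.2 CPM in W329G libraries, against 22.0, 37.7, 28.97 and 23.5 CPM in WT libraries, a log2 fold change of 0.71 ± 0.19. NFE2L2, which encodes NRF2, was at 0.33 ± 0.12 and NQO1, a quinone reductase, at 0.47 ± 0.20. SLC7A11, the cystine transporter, stands in both the ATF4 and the NRF2 list and was at 0.73 ± 0.24. Library medians lay between 0.23 and 0.44 in W329G cells and between -0.26 and 0.26 in WT cells.

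Inflammatory genes lay mostly below 0, and interferon genes on both sides of 0. Library medians of the NF-kB list were -0.503, -0.29, -0.295 and -0.198 in W329G replicates 1 to 4. In WT libraries they ran from -0.119 to 0.119. NF-kB genes had a median of -0.34 with 20 of 24 below 0, and IL32 was lower and PTGS2 higher at an unadjusted p under 0.05, 8.3% of the list beside 12% of all genes. IL32, an inflammatory cytokine, had 3.86, 5.44, 1.21 and 0.899 CPM in W329G libraries, against 6.45, 12.3, 9.11 and 2.41 CPM in WT libraries, a log2 fold change of -1.70 ± 0.48. Interferon-stimulated genes had a median of -0.08 over 38 tested, with 3 higher and 3 lower, which is 15.8% of the list. OASL, of the 2′-5′-oligoadenylate synthetase family, was at -1.12 ± 0.27 and called by DESeq2. BST2, which tethers viruses to the cell surface, had 2.33, 2.81, 0.738 and 0.385 CPM in W329G libraries, against 1.97, 13.8, 13.7 and 0.336 CPM in WT libraries, a wide spread within WT. Its log2 fold change was -2.57 ± 0.98.

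Ribosomal protein genes, among them RPL5 and RPL11, whose products bind the central part of MDM2, had a median of 0.19. Of 78 tested, 16 were higher and none lower at an unadjusted p under 0.05, which is 20.5% beside 12% of all genes. RPL23A had 1121, 913, 456 and 239 CPM in W329G libraries, against 487, 655, 201 and 145 CPM in WT libraries, a log2 fold change of 0.92 ± 0.22, and DESeq2 called it and RPL37. The list median was 0.52, 0.01, 0.16 and 0.16 in W329G replicates 1 to 4. Replicate 1, the highest, is the library with the lowest mitochondrial share, 7.14%, and the part of this share in the result was not tested. Mitochondrially encoded genes had a median of -1.44 in that library and of -0.16, -0.09 and 0.10 in the other W329G libraries. Under 5-FU the ribosomal protein list had a median of -0.04 with 1 gene called lower and none higher, beside 6.16% of all genes lower and 6.06% higher. Ribosome biogenesis genes had a median of 0.03 over 59 tested under DMSO.

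G2/M and mitosis genes had 8 of 54 higher and none lower at an unadjusted p under 0.05, which is 14.8% beside 12% of all genes. The list median was 0.24, or 0.15 after the GC correction. BUB1B, a checkpoint kinase, had 117, 74.1, 109 and 170 CPM in W329G libraries, against 54.8, 59.7, 87.8 and 99.9 CPM in WT libraries, a log2 fold change of 0.65 ± 0.19. NCAPD2, a condensin subunit, was at 0.56 ± 0.14 and called by DESeq2. It lies in the first 10 Mb of chromosome 12, where the median over 102 genes was 0.33. Without NCAPD2 and FOXM1, which lie in the shared bins described below, the list median was 0.23. Library medians of the list were 0.42, 0.14, 0.04 and 0.34 in W329G replicates 1 to 4, and WT replicate 4 stood at 0.17.

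**Figure D4:**
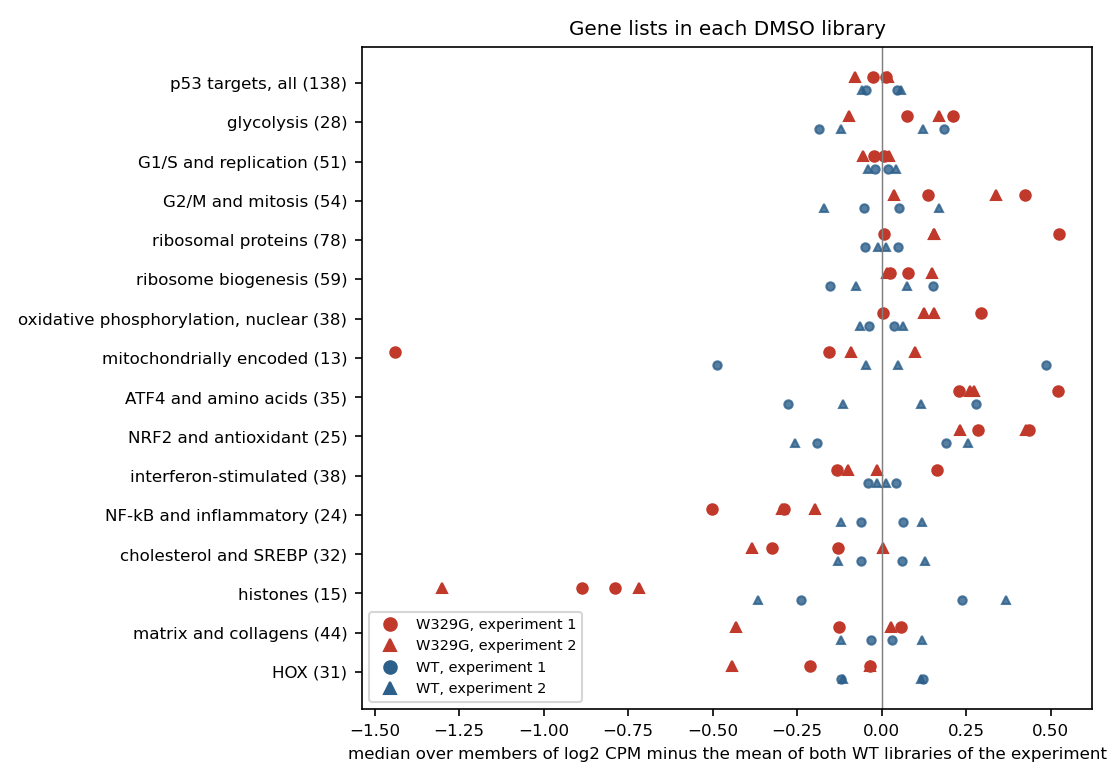
Median over the tested members of a gene list (y axis, number tested in brackets) of log2 CPM minus the mean of both WT libraries of the same experiment (x axis), with 1 point for each DMSO library, W329G in red above WT in blue. All 4 W329G points of the histone list lie between -1.30 and -0.72, whereas those of the p53 target list lie between -0.08 and 0.02.

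Glycolysis is a pathway that the title of the series names. Of 28 glycolytic genes tested, 3 were higher and 1 lower at an unadjusted p under 0.05, which is 14.3% beside 12% of all genes, and the median was 0.08. GAPDH had 9828, 6049, 4696 and 4616 CPM in W329G libraries, against 5310.5, 4394, 3387 and 3348 CPM in WT libraries, a log2 fold change of 0.59 ± 0.19, and was called by DESeq2. TPI1, triosephosphate isomerase, was at 0.43 ± 0.17, ENO2, an enolase, at 0.32 ± 0.13 and PGM1, phosphoglucomutase, at -0.50 ± 0.17. SLC2A1, the main glucose transporter, was at 0.03 ± 0.20, HK2, a hexokinase, at 0.05 ± 0.23 and LDHA, lactate dehydrogenase, at 0.15 ± 0.16. The 3 genes that were higher at that p lie together in the first 10 Mb of chromosome 12, with SLC2A3. The median of these 4 genes was 0.39, and that of the other glycolytic genes was 0.04.

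Position on the chromosomes was a feature that the choice of libraries did not use. Over 261 bins of 10 Mb with at least 20 tested genes, the median difference of a bin from the WT libraries of its experiment was taken in each W329G library. In 6 bins all 4 W329G libraries were beyond 0.2 in the same direction. The median size of a bin's value in single WT libraries was 0.06 over all bins, but WT values are deviations from a mean that includes the library itself and so are not on the same footing. In these bins they reached -0.26 and 0.26 (chromosome 12, 0 to 10 Mb), -0.24 and 0.24 (chromosome 12, 10 to 20 Mb) and -0.25 and 0.25 (chromosome 16). The bins at 0 to 10 Mb of chromosomes 3, 5 and 16 were lower, with medians of the fitted log2 fold change of -0.37 over 36 genes, -0.48 over 32 genes and -0.44 over 162 genes. The bins at 0 to 10 Mb and 10 to 20 Mb of chromosome 12 and at 30 to 40 Mb of chromosome 5 were higher, with 0.33 over 102 genes, 0.52 over 55 genes and 0.31 over 36 genes. With the GC correction 2 bins were lower and 4 higher in all 4 libraries, but not all the same bins. The chromosome 16 bin fell short, with a median of -0.27 and W329G replicate 3 at -0.18, as did the chromosome 5 bin at 30 to 40 Mb, with replicates 1 and 4 at 0.09 and 0.06. The bins at 30 to 40 Mb of chromosome 1 and 240 to 250 Mb of chromosome 2 came in. All 6 bins kept their direction in each of the 4 W329G libraries under 5-FU.

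In the first bin of chromosome 5 all 32 genes were below 0, and 19 of them were lower at an unadjusted p under 0.05. SDHA, a subunit of succinate dehydrogenase, is among them and had 127, 139, 95.2 and 90.7 CPM in W329G libraries, against 185, 199, 154 and 135 CPM in WT libraries, a log2 fold change of -0.58 ± 0.12. In the first bin of chromosome 16, 71 of 162 genes were lower and 1 higher, among them CREBBP, a p53 acetyltransferase, at -0.58 ± 0.14, and IL32. In the first bin of chromosome 12, 31 of 102 genes were higher and 4 lower, among them CCND2, cyclin D2, which had 222, 136, 148 and 229 CPM in W329G libraries, against 93.8, 109, 64.2 and 114 CPM in WT libraries. CCND2 had a log2 fold change of 0.95 ± 0.23. CLEC2B lies in the same bin, and GABARAPL1 and CDKN1B, which encodes the inhibitor p27 and was at 0.82 ± 0.22, in the next.

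COL4A1 and COL4A2 lie in the last bin of chromosome 13, where 27 of 27 genes were below 0 with a median of -0.45. That bin is outside the 6, since W329G replicate 1 was at -0.15. The 6 bins hold 423 tested genes, 2.75% of all, and 40.2% of them were at an unadjusted p under 0.05, against 11.2% of genes elsewhere. The bins were chosen for a difference between the genotypes in these libraries, so a higher share follows from the choice and is given as a description. They hold 57 of the 342 genes that DESeq2 called. The bin of MDM2 on chromosome 12 had a median of 0.01 over 37 genes, but its W329G libraries differed. Replicates 1 to 4 were at -0.14, -0.0, 0.18 and 0.05, or -0.29, 0.0, 0.11 and -0.17 after the GC correction. Single WT libraries ran from -0.16 to 0.16. Under 5-FU the W329G replicates were at -0.36, 0.06, 0.13 and -0.32. None of the 6 genes that edgeR called lies in the 6 shared bins. ZNF154 lies in the bin at 50 to 60 Mb of chromosome 19, which had a median of -0.21. Of its 212 genes, 173 were below 0 and 39 above. W329G replicates 1 to 4 were there at -0.13, -0.43, -0.39 and -0.2, or 0.0, -0.43, -0.37 and -0.05 after the GC correction. Copy number was not measured in these libraries, and its part in the values of the bins was not tested.

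**Figure D5:**
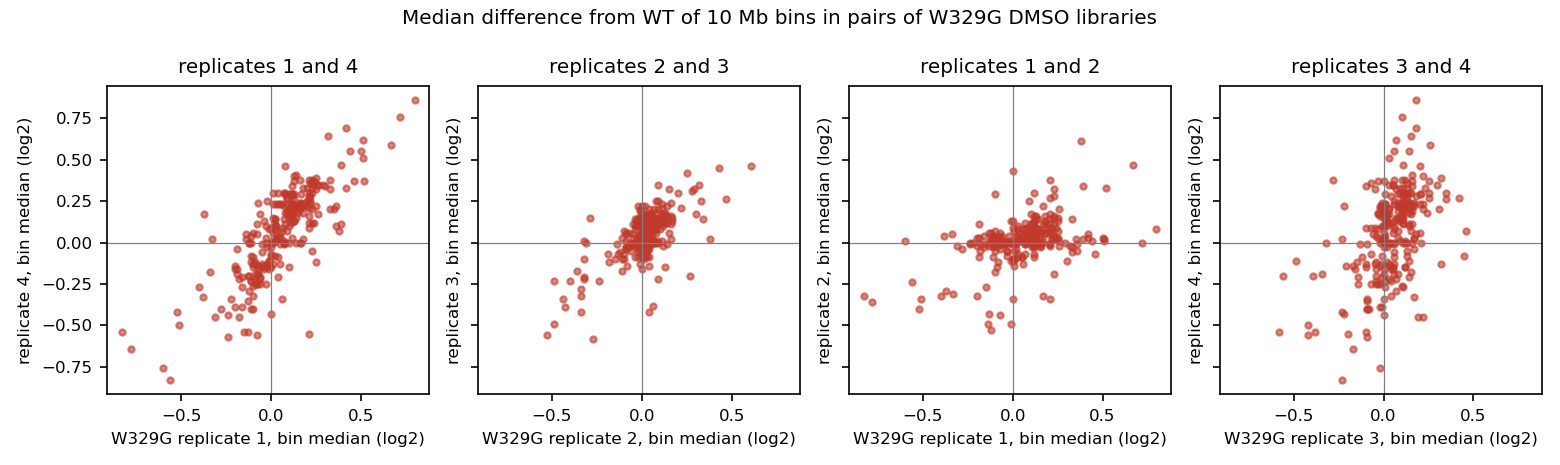
Median log2 difference from the WT libraries of the same experiment for 261 bins of 10 Mb, 1 point for each bin, in pairs of W329G DMSO libraries (x and y axes). The points follow a common line most closely for replicates 1 and 4 (r = 0.80) and replicates 2 and 3 (r = 0.69), which share no library, experiment or cell number.

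Across the 261 bins, the values of W329G replicates 1 and 4 correlated with r = 0.80 and those of replicates 2 and 3 with r = 0.69. Replicates 1 and 2 correlated with 0.46, replicates 3 and 4 with 0.49, replicates 1 and 3 with 0.35 and replicates 2 and 4 with 0.28. Replicates 1 and 2 share the same WT libraries in their differences, as do replicates 3 and 4, whereas replicates 1 and 4, and replicates 2 and 3, share none. After the GC correction the pairs 1 and 4, and 2 and 3, were at 0.81 and 0.69. The correlations are across bins and carry no test.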

How the data were processed

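TruSeq libraries were prepared from poly-A RNA, per the labels' protocols, and the authors deposited raw counts per gene, 1 table for each library. The build named in the submitters' processing notes is hg19, but the gene starts and ends in the tables of experiment 1 equal those of GENCODE 29 on GRCh38 for 96.27% of 56898 genes, and these coordinates are printed. Which aligner and counter were used, and whether by strand, was not given in the sources used here. All of the 26 largest values of experiment 2 end in 0, as rounded numbers do.

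Gene symbols joined both experiments (57500 and 28890 genes, 28717 joined, 246 of them through an older symbol, 16 ambiguous symbols left out), which kept 98.38% to 99.91% of the counts. Libraries of 1 group and experiment differed by a chi-square per degree of freedom of 111.3 to 155.9, far beyond sampling noise, and were kept as separate samples. Nothing says that the experiments used separate cultures. The p-values reflect only how far these libraries spread, which includes differences between cells 1 and cells 2 and may be partly technical. The 4 libraries of a genotype come from 2 lines.

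The 8 DMSO libraries were fitted with edgeR 4.0.16 in R 4.3.3 (quasi-likelihood F test, TMM, filterByExpr, a term for experiment, Benjamini-Hochberg adjustment over all genes tested, threshold 0.05). The script was tested on simulated data. The 5-FU libraries were fitted apart in the same way. SE was taken as the size of the log2 fold change over the square root of F. CPM uses TMM-scaled library sizes, and log2 CPM has a prior count of 2. Library and bin values are differences from the mean of the WT libraries of the same experiment. The GC correction is a loess fit (span 0.3), for each library, of log2 CPM minus the mean over the fitted libraries on GC content, used as an offset.

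The genes named were MDM2, MDM4 and CDKN1A (1 more result is not reported here), then up to 14 called genes in each direction with a mean of at least 5 CPM, the same sign and no overlap in both experiments, then up to 4 called members of each of 40 gene lists. Other genes are named after their values were seen. The comparison and the lists were chosen with earlier results of these data known. Alternatives were DESeq2 1.42.0 and limma 3.58.1 (voom), other scalings, filters, blocks and joins, sums per line, each experiment alone, and leaving out libraries or lines. Added after seeing the data were the exchanged cell numbers, the GC correction and voom without a block.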

Additional observations from a re-analysis of the deposited data

Results flagged for a closer look

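MDM2 and CDKN1A differed between treatments in their difference between W329G and WT cells. In 1 edgeR fit of all 16 libraries, the log2 fold change of W329G against WT under 5-FU minus that under DMSO was -1.86 ± 0.26 for MDM2 (adjusted p = 0.00269) and -1.74 ± 0.23 for CDKN1A (adjusted p = 0.00211). The same term was not called for TGM2, GLMP, ZNF154, PRAG1, CT45A1 or PAPPA2, where it ran from -1.28 for PAPPA2 to 0.15 for GLMP. No gene was called for a difference of the DMSO comparison between the experiments by edgeR, with 149 of 15379 genes at an unadjusted p under 0.05. The lack of calls does not show that the experiments match, as MDM4 turned round between them without being called.

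Single libraries stood apart from the other 3 of their group in 2 of 20 groups examined, and chance gives about 1 in 20. WT replicate 2 had 9.03 CPM of PAPPA2, above the other WT libraries, and WT replicate 1 had 62.16 CPM of PRAG1, above the other WT libraries.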

How the results depend on the processing

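The count of 6 called genes depended on the tool and on how the spread was estimated. It was 342 with DESeq2, 545 without a filter on low counts, 146 with all 16 libraries in 1 edgeR fit, and 155 with limma-voom and the line as random block by the labelled numbers. With the numbers exchanged in experiment 2 that fit called 6, as did voom without a block. The correlation fitted within a line was -0.277 by the labelled numbers and 0.329 by the exchanged numbers. Below 0, libraries of a line are less alike than other libraries of their genotype. Counts summed per line gave 21 calls with the labelled numbers and 2, TGM2 and GLMP, with the exchanged numbers. The GC correction gave 3 (TGM2, GLMP and ZNF154) and no experiment term gave 2. Experiment 1 alone gave 0 in edgeR, with 675 of 15320 genes at an unadjusted p under 0.05. Experiment 2 alone gave 5.

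The replicate block gave 9 calls. The numbers do not pair the genotypes: cells 1 minus cells 2 correlated between W329G and WT with r = -0.083 in experiment 1 and 0.467 in experiment 2. Leaving out single libraries gave 2 to 9 calls, with 3 without WT replicate 1 and 2 without WT replicate 4. Leaving out a line, by the labelled numbers, gave 1 to 4. Over 29 alternatives TGM2 kept its call in 28, GLMP in 26, ZNF154 in 22, CT45A1 and PRAG1 in 17 each and PAPPA2 in 14. All 6 kept their direction. Among the alternatives was a minimum log2 fold change of 1 in size, set on the main fit. Each of the 6 genes exceeded it there, so that alternative could drop no call. MDM4 ran from -0.13 to 0.36 without single libraries or lines and turned round in 5 alternatives: -0.47 in experiment 1 alone, -0.04 without W329G replicate 3, -0.13 without WT replicate 3, and -0.03 and -0.01 without the lines W329G cells 2 and WT cells 2. The causes were not tested.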
